A study of Mus musculus with 15 samples.

Results

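Calcium handling and ion channel genes were followed through their alternative splicing in skeletal muscle of a mouse model of myotonic dystrophy type 1. The set named 35 genes, and every splicing event of these genes in the deposited table was taken, whatever its type. Events named by coordinates were taken by gene symbol, and alternative first and last exons by the gene ID in their names. This gave 149 events in 20 genes, of 39123 events in all. For 108 of them, in 19 genes, no library lacked a value, and these were tested together with the rest of the 31267 events that were complete in the same way (15 libraries). Casq2, Jph1, Jph2, Stac3, Cacng1, Scn4a, Kcnj2, Kcnn3, Kcnc1, Kcnc4, Hrc, Atp2b1, Itpr3, Calm3 and Atp1b1 had no event under this rule and are not analysed here. By type, 47 were skipped exons, 42 last exon events and 28 first exon events. A further 18 concerned mutually exclusive exons, 10 the choice of a 3' splice site, 2 the choice of a 5' splice site and 2 a retained intron. They were spread unevenly: Kcnma1 held 49 and Asph 29, while Casq1, Trdn, Stim1, Orai1, Sypl2, Slc8a3 and Calm2 held 1 each.

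All 15 libraries came from mice labelled TREDT960I-HOM, which carry a transgene under doxycycline control for the expanded CUG repeat. The 6 induced libraries came from mice that also carried MDAFrtTA, the doxycycline-dependent activator, and received doxycycline from postnatal day 1. The 3 dox control libraries had doxycycline but no MDAFrtTA. The 6 no dox libraries had both transgenes without doxycycline. Each age of 6, 12 and 20 weeks had 2 induced, 1 dox control and 2 no dox libraries. The last 2 groups are together called controls below (9 libraries). Gastrocnemius gave 4 induced and 6 control libraries, and quadriceps gave 2 induced and 3 control libraries. All mice were female but for the male of week 6 no dox replicate 2. The labels do not say which promoter drives MDAFrtTA, and no animal numbers are given.

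In a muscle fibre, depolarisation of the surface membrane opens ryanodine receptors of the sarcoplasmic reticulum, and calcium is released from a store buffered by calsequestrin. Calcium is then pumped back into the store, expelled by pumps and exchangers of the surface membrane, or taken up by mitochondria, and potassium channels repolarise the membrane. In myotonic dystrophy type 1 the expanded CUG RNA sequesters muscleblind-like splicing factors, and mis-splicing of channel and calcium handling transcripts is a known feature of the muscle.

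Splicing was measured as the percent spliced in (PSI), a fraction between 0 and 1. For a skipped exon PSI is the share of transcripts that include the exon, and for a retained intron the share that retain it. For first, last and mutually exclusive exons it is the share of the form that the event's name gives before the other. The name does not say which end of the gene that is. For alternative splice sites the form that PSI counts was not established, so a higher PSI is not read as a longer or shorter exon. The number of reads behind a value is unknown. Each library had a value for 34416 to 36959 events of the table and for 114 to 140 of the 149 events described here. PSI correlated between libraries across all events with r between 0.943 and 0.968, and no library stood apart. The table held no expression levels, so cell types could be checked only through the presence of splicing events. Fibre genes with an event were Actn3, Myh1, Myh4, Neb, Tnnt3 and Ttn, which is 6 of 10 listed. Events were also present for 3 of 4 listed endothelial genes, 3 of 4 leukocyte genes and 2 of 4 smooth muscle and pericyte genes. Of fibroblasts, Schwann cells and adipocytes, 1 of 4 genes each had an event. Of satellite cells 3 of 4 had one, and none of these was measured in all libraries. The part of such cells in the values below was not tested, and in bulk muscle a shift within fibres and a shift in cell types cannot be told apart.

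An event was called when its PSI differed by 0.1 or more and its adjusted p was under 0.05. None of the 108 events was called in induced muscle against controls by limma, against 0.00640% of all events, which is 2 events. At an unadjusted p under 0.05 by limma, 10 of the 108 events (9.26%) stood out, 5 with higher and 5 with lower PSI in induced libraries, against 6.26% of all events. An exact permutation test, in which every possible set of 6 of the 15 libraries took the place of the induced ones, also put 10 of the 108 events (9.26%) under an unadjusted 0.05, against 4.95% of all events. It called none after adjustment, and its lowest adjusted p over the whole table was 0.240. In no event did the 6 induced libraries lie wholly above or below the 9 controls, against 0.125% of all events. A fitted difference of at least 0.1 in size, whatever its p, was found for 3 of the 108 events, all in Asph, against 3.98% of all events. Events of a gene that mirror or repeat each other are counted separately in all these counts. The median size of the difference was 0.016 over the 108 events and 0.013 over all events. The 95% interval of the difference lay within 0.1 on both sides of 0 for 57.4% of the 108 events and for 64.3% of all events.

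Most events were set at one end of the scale or in the middle. Mean PSI was under 0.05 in 24 events (22.2%, against 16.7% of all events) and over 0.95 in 10 (9.3%, against 13.1%). Mean PSI lay between 0.4 and 0.6 in 30 events (27.8%, against 14.2% of all events), many of them alternative first or last exons of Asph and Kcnma1. The estimate used for these fractions lies near the middle of the scale when few reads bear on an event, and how far that holds for these 30 events was not tested. The spread among the 9 controls was widest there, with a median SD of 0.076, against 0.005 for events under 0.05. Over all events the same medians were 0.092 and 0.007.

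**Figure D1:**
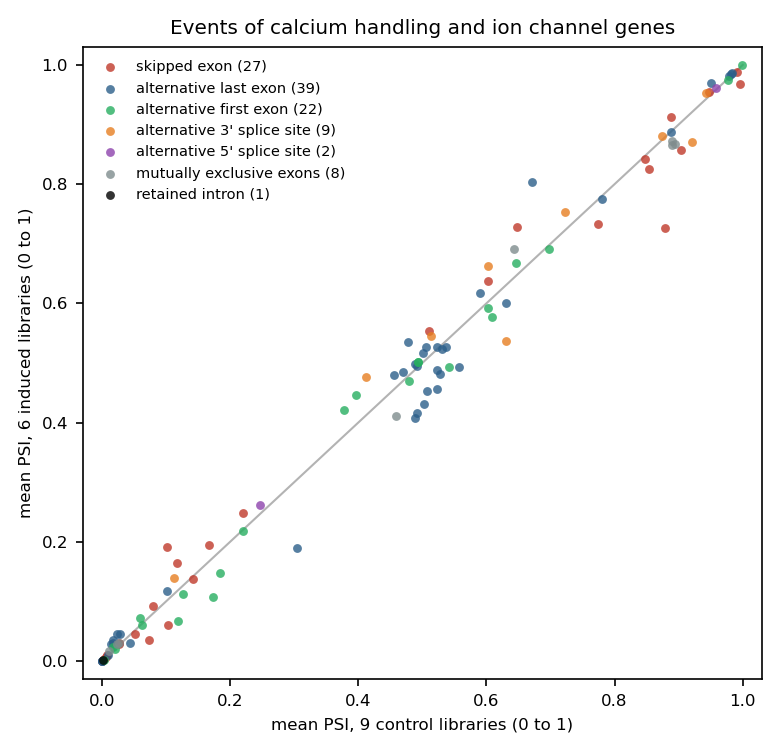
Mean PSI of 108 splicing events in 6 induced libraries (vertical axis) and 9 control libraries (horizontal axis), both on a scale of 0 to 1, with points coloured by event type and a line of equality. Most points lie on or near the line, and the Asph 75-nt exon is the point farthest below it, at 0.727 in induced and 0.878 in control libraries.

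The store and release complex of the sarcoplasmic reticulum contributed 41 tested events in Casq1, Trdn, Asph, Srl and Fkbp1a. Of these 41, 7 had an unadjusted p under 0.05 by limma, against 6.26% of all events. These 7 of the 10 such events lay in Asph and Trdn, and they include a pair of Asph events, described below, that mirror each other. Asph encodes aspartate beta-hydroxylase and, from the same locus, junctin, a membrane protein that links calsequestrin to the ryanodine receptor, and junctate. A 75-nt exon of Asph (mm10, chr4:9607797-9607871, minus strand) had the lowest inclusion relative to controls. Its PSI was 0.69 and 0.46 in week 6, 0.79 and 0.71 in week 12 and 0.87 and 0.84 in week 20 induced libraries. In the 9 controls it lay between 0.82 and 0.94, with a median of 0.86. Thus 4 of 6 induced libraries lay below every control, and both induced libraries of week 20 lay inside the control range. Mean inclusion was 0.727 ± 0.148 in induced and 0.878 ± 0.045 in control libraries (SD, n = 6 and 9). The fitted difference was -0.151 (SE 0.036), with an adjusted p of 0.408 by limma and an unadjusted exact permutation p of 0.0042. It was -0.099 in gastrocnemius alone and -0.243 in quadriceps alone. The quadriceps fit, here and below, had no age term and held no week 6 control. Its induced libraries stood at 0.46 in week 6 and 0.84 in week 20, against 0.86 to 0.92 in its controls. The sizes in the 2 muscles are therefore not compared. Leaving out week 6 induced replicate 2, the library at 0.46, gave -0.111 over both muscles.

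Asph also had 20 of its 29 events among alternative last exons, named by UCSC transcripts. The event of transcript uc008ryo.1 against the group that begins with uc008ryf.1 had the largest positive difference of the 108 events. Its PSI ran between 0.72 and 0.86 with a median of 0.805 in induced libraries, against 0.54 to 0.80 with a median of 0.70 in controls. The ranges overlapped, with 3 of 6 induced libraries above every control. The means were 0.803 ± 0.052 in induced and 0.671 ± 0.095 in control libraries (SD, n = 6 and 9). The difference was 0.132 (SE 0.033), with an adjusted p of 0.422 by limma and an exact permutation p of 0.00959. It was 0.182 in gastrocnemius alone and 0.055 in quadriceps alone. The event of uc008ryo.1 against uc008ryi.1 mirrored it: the PSI of both summed to 1 within 0.05 in every library, so they are not independent. The counts of events take them as 2 all the same, both among the 10 with an unadjusted p under 0.05 by limma and among the 3 that differed by 0.1 or more. Its means were 0.190 ± 0.060 in induced and 0.304 ± 0.089 in control libraries (SD, n = 6 and 9), and its adjusted p was 0.460 by limma. Another event of the same transcript, against the group that begins with uc008ryk.1, averaged 0.432 ± 0.075 in induced and 0.502 ± 0.086 in control libraries (SD, n = 6 and 9; adjusted p = 0.794 by limma). Over all ages, the smallest limma p of the 108 events, 0.00152, belonged to uc008rym.1 and uc008ryn.1 against uc008ryf.1 to uc008ryh.1, at a level close to 0. It lay between 0.02 and 0.04 in induced and between 0.01 and 0.02 in control libraries, with a difference of 0.014 and an adjusted p of 0.375 by limma. The difference was a single step or a few steps of the 2 decimals to which PSI was printed.

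The other tested Asph exons varied among controls as much as between arms. The 96-nt exon upstream of the 75-nt one (chr4:9610843-9610938) averaged 0.728 ± 0.096 in induced and 0.648 ± 0.135 in control libraries (SD, n = 6 and 9). The 42-nt exon (chr4:9624360-9624401) averaged 0.553 ± 0.112 in induced and 0.511 ± 0.179 in control libraries (SD, n = 6 and 9). Its 95% interval of the difference ran from -0.162 to 0.247. The 45-nt exon (chr4:9637659-9637703) was nearly always skipped, at 0.028 ± 0.010 in induced and 0.027 ± 0.012 in control libraries (SD, n = 6 and 9). The 140-nt exon (chr4:9610413-9610552) was also mostly skipped, at 0.035 ± 0.033 in induced and 0.074 ± 0.052 in control libraries (SD, n = 6 and 9).

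Triadin, encoded by Trdn, anchors calsequestrin to the ryanodine receptor. Its 60-nt exon (chr10:33200163-33200222, plus strand) was included in almost every transcript. Inclusion was 0.99 and 0.94 in week 6, 0.94 and 0.97 in week 12 and 0.98 and 0.99 in week 20 induced libraries. In all 9 controls it was 0.99 or 1.00. Again 4 of 6 induced libraries lay below every control. The difference was -0.027 (SE 0.007), under the minimum of 0.1, with an adjusted p of 0.460 by limma and an exact permutation p of 0.003. Without week 6 induced replicate 2 it was -0.018, and without week 6 induced replicate 1 it was -0.036.

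Calsequestrin 1, the main calcium buffer of the store, had a first exon event that stood at 1.00 in all induced libraries and at 0.99 or 1.00 in controls. Srl encodes sarcalumenin, a calcium binding glycoprotein of the store, and its long 1311-nt exon (chr16:4496405-4497715) separates the sarcalumenin form from a shorter glycoprotein. Its PSI was 0.138 ± 0.008 in induced and 0.142 ± 0.016 in control libraries (SD, n = 6 and 9). The 95% interval of the difference was -0.025 to 0.018, one of the tightest among exons of intermediate level. The PSI of the 3-nt alternative 3' splice site of Srl and that of this exon summed to 1 within 0.04 in every library. Both varied little, and by its coordinates the splice site event joins exons on either side of this exon. The sum therefore does not make them complementary forms. Fkbp1a encodes FKBP12, which binds the ryanodine receptor and steadies its closed state. Its 113-nt exon (chr2:151557386-151557498) had a PSI of 0.98 or 0.99 in induced and 0.99 or 1.00 in control libraries. Its 235-nt mutually exclusive exon event was the most variable event of the set, between 0.20 and 0.67 in induced and between 0.22 and 0.82 in control libraries. The 95% interval of its difference was -0.256 to 0.162.

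Sypl2 encodes mitsugumin 29, a synaptophysin-like protein of the triad where the transverse tubule meets the store. Its last exon event kept a narrow range in every library, 0.76 to 0.80 in induced and 0.76 to 0.79 in control libraries, and the interval of the difference was -0.041 to 0.029. Calm2, a calmodulin gene, had 1 retained intron of 80 nt (chr17:87435711-87435790) at 0 or 0.01 in every library.

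**Figure D2:**
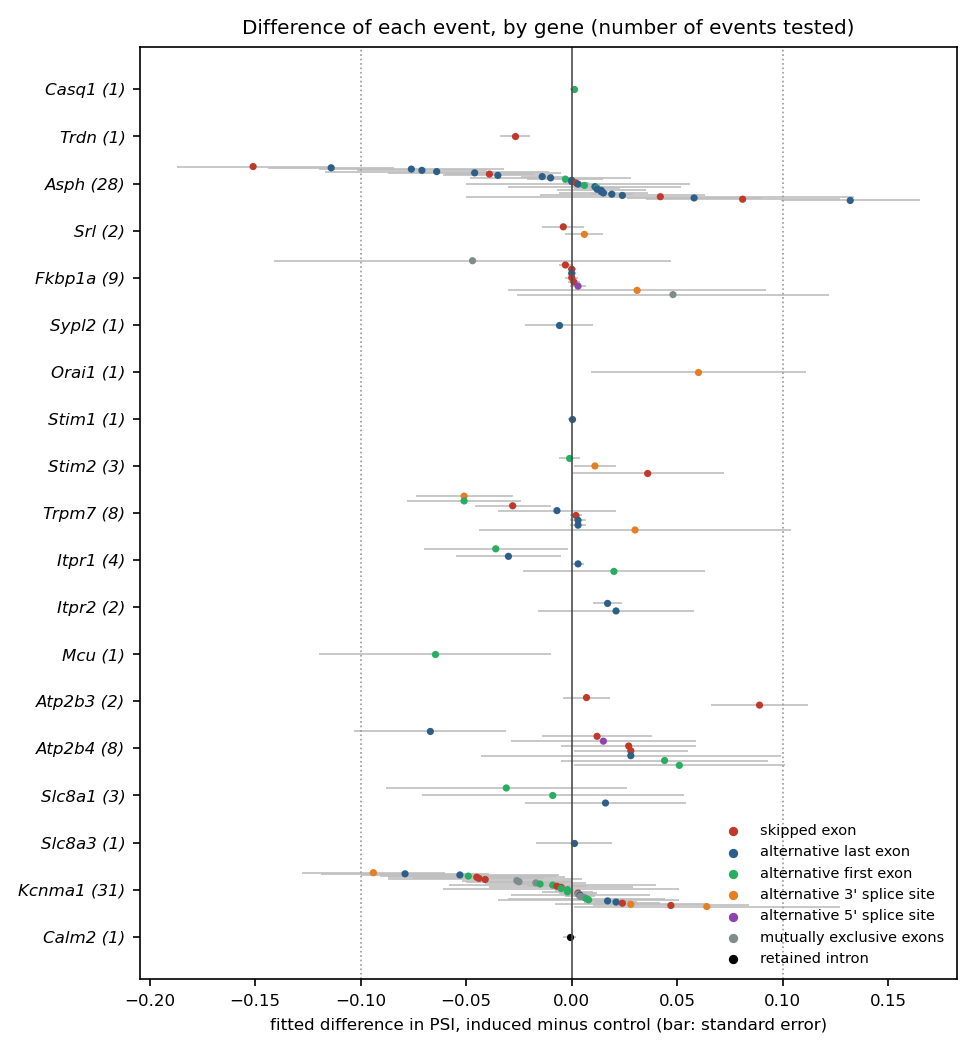
Fitted difference in PSI, induced minus control (horizontal axis), for each of 108 events by gene (vertical axis, with the number of events in parentheses), with bars of 1 standard error, colours for event type and dotted lines at 0.1 and -0.1. The 3 events that reach 0.1 in size are all in Asph, and the events of the other 18 genes lie between -0.094 and 0.089.

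Store-operated calcium entry and TRP channels gave 13 tested events. None had an unadjusted p under 0.05 by limma in induced muscle against controls, against 6.26% of all events. With 13 events, that count cannot be told from the share over all events. STIM2 senses calcium in the store and opens ORAI1 channels, and its splice variant with the short 24-nt exon (chr5:54110116-54110139) inhibits entry. That exon was included at 0.51 to 0.73 in induced libraries (median 0.67) and at 0.54 to 0.70 in controls (median 0.60). The arms overlapped nearly wholly, the difference was 0.036 (SE 0.036) and the interval was -0.044 to 0.116. Orai1, the pore subunit, had a 1-nt shift of a 3' splice site (chr5:123030118) at 0.663 ± 0.104 in induced and 0.603 ± 0.090 in control libraries (SD, n = 6 and 9). The last exon event of Stim1, the main sensor of the store, was 0 in all 15 libraries. Trpm7 encodes a cation channel fused to a kinase. Its 206-nt exon (chr2:126797111-126797316) was included at 0.825 ± 0.021 in induced and 0.853 ± 0.041 in control libraries (SD, n = 6 and 9), with an interval of -0.069 to 0.013. The 50-nt alternative 3' splice site of Trpm7 (chr2:126821289-126821338) had the smallest p of the gene, at 0.870 ± 0.057 in induced and 0.921 ± 0.040 in control libraries (SD, n = 6 and 9; adjusted p = 0.806 by limma). Its difference of -0.051 was -0.031 without week 12 induced replicate 1, which stood at 0.76. The 5 events of Trpc1, a canonical TRP channel, had values in at most 5 libraries and were not tested. Its 155-nt exon, in the event measured in 5 libraries, stood at 0.74 and 0.91 in induced libraries and between 0.48 and 0.91 in 3 controls.

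IP3 receptors release calcium from internal stores in response to inositol trisphosphate, and the mitochondrial uniporter Mcu takes calcium up. A last exon event of Itpr2 (uc009erz.1) lay between 0.01 and 0.07 in induced libraries, with a median of 0.03, and between 0 and 0.05 in controls, with a median of 0.01. The difference was 0.017 (SE 0.007), far under the minimum, with an adjusted p of 0.794 by limma and an exact permutation p of 0.0855. Without week 20 induced replicate 2, the library at 0.07, it was 0.011. The last exon event of Itpr1 (uc009ddg.1 against uc009ddh.1) averaged 0.60 ± 0.026 in induced and 0.630 ± 0.055 in control libraries (SD, n = 6 and 9), with an interval of -0.087 to 0.027. The first exon event of Mcu was variable among controls, between 0.01 and 0.48, and lay between 0.04 and 0.17 in induced libraries.

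A 45-nt exon of Mcu (chr10:59606133-59606177), listed under an older symbol of the gene, had no value in week 12 no dox replicate 2. It was therefore fitted only when events with missing values were also tested, and it is described because of its values. Inclusion was 0.37 and 0.42 in week 6, 0.56 and 0.47 in week 12 and 0.25 and 0.43 in week 20 induced libraries. In the 8 controls it lay between 0.47 and 0.66. The arms overlapped only through the week 12 induced libraries, and 4 of 6 induced libraries lay below every control. The difference was -0.142 (SE 0.033), with an adjusted p of 0.403 by limma and an exact permutation p of 0.0216 over 3003 choices. In that fit 0.00584% of 34252 events met the call, and neither this exon nor the other 14 events of the set that entered with it did.

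**Figure D3:**
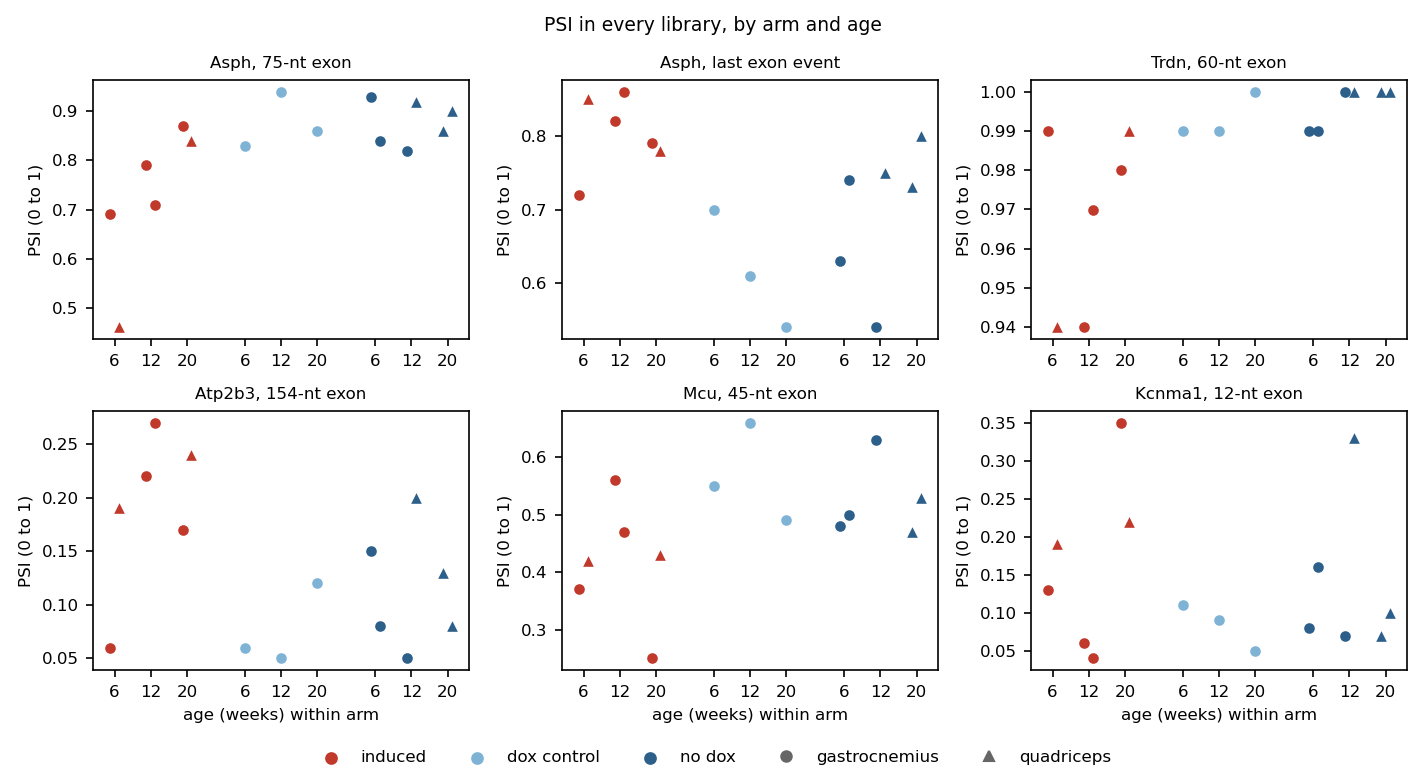
PSI on a scale of 0 to 1 (vertical axis) of 6 events in every library, by age within induced, dox control and no dox libraries (horizontal axis), with circles for gastrocnemius and triangles for quadriceps. The Asph and Trdn exons have 4 of 6 induced libraries below all controls, and the Kcnma1 12-nt exon is highest in week 20 induced replicate 1, at 0.35.

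Plasma membrane pumps and sodium-calcium exchangers expel calcium from the fibre, and 14 of their events were tested in Atp2b3, Atp2b4, Slc8a1 and Slc8a3. The 154-nt exon of Atp2b3 (chrX:73559864-73560017, plus strand), a calcium pump gene, is not a whole number of codons long, so its inclusion shifts the reading frame. Its inclusion was 0.06 and 0.19 in week 6, 0.22 and 0.27 in week 12 and 0.17 and 0.24 in week 20 induced libraries. In the 9 controls it lay between 0.05 and 0.20, with a median of 0.08. In weeks 12 and 20, 3 of the 4 induced libraries lay above every control, and the lowest induced library was week 6 induced replicate 1. The means were 0.192 ± 0.074 in induced and 0.102 ± 0.051 in control libraries (SD, n = 6 and 9). The difference was 0.089 (SE 0.023), with an adjusted p of 0.454 by limma and an exact permutation p of 0.0194. It was 0.069 in gastrocnemius alone and 0.078 in quadriceps alone, and between 0.079 and 0.104 with any single library left out. The 192-nt exon of Atp2b3 (chrX:73547643-73547834) stayed between 0.94 and 0.97 in induced and between 0.91 and 0.97 in control libraries.

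None of the 8 tested events of Atp2b4, another calcium pump gene, had an unadjusted p under 0.05 by limma, against 6.26% of all events. Its 191-nt exon (chr1:133711632-133711822) averaged 0.195 ± 0.071 in induced and 0.167 ± 0.038 in control libraries (SD, n = 6 and 9). The 181-nt exon, which shares one end with it and lies within the same bases, averaged 0.248 ± 0.065 in induced and 0.221 ± 0.051 in control libraries (SD, n = 6 and 9). The last exon event of Atp2b4 with the smallest p (uc007cqw.1) averaged 0.457 ± 0.057 in induced and 0.523 ± 0.096 in control libraries (SD, n = 6 and 9; adjusted p = 0.859 by limma). The last exon event of Slc8a3, an exchanger of skeletal muscle, was 0.888 in both arms, with an interval of -0.040 to 0.041. Slc8a1, the exchanger best known from heart, had 11 events but values in all libraries for only 3. Both of its tested first exon events ranged widely, from 0.26 to 0.74 in induced and from 0.37 to 0.79 in control libraries, and the interval for uc008drq.1 against uc008drs.1 was -0.148 to 0.130.

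Kcnma1, which encodes the pore subunit of the large-conductance calcium-activated potassium channel, had 31 tested events. Of these, 1 had an unadjusted p under 0.05 by limma, against 6.26% of all events. The channel is also known from smooth muscle, and 2 smooth muscle and pericyte genes, Myh11 and Pdgfrb, had events in every library. The event was a 3-nt shift of a 3' splice site (chr14:23300043-23300045, minus strand). Its PSI ran between 0.50 and 0.60 with a median of 0.515 in induced libraries, against 0.57 to 0.74 with a median of 0.64 in controls. The arms overlapped narrowly, with 4 of 6 induced libraries below every control. The means were 0.537 ± 0.042 in induced and 0.631 ± 0.052 in control libraries (SD, n = 6 and 9). The difference was -0.094 (SE 0.034), with an adjusted p of 0.691 by limma and an exact permutation p of 0.0036. The same 3 bases, joined from a 29-nt exon upstream, gave other values: 0.477 ± 0.144 in induced and 0.412 ± 0.123 in control libraries (SD, n = 6 and 9), a difference of 0.064 (SE 0.063). That difference was 0.008 without week 6 induced replicate 2 and 0.121 without week 6 induced replicate 1.

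Other Kcnma1 exons ranged from mostly included to mostly skipped. The 81-nt exon (chr14:23336040-23336120) averaged 0.858 ± 0.090 in induced and 0.903 ± 0.057 in control libraries (SD, n = 6 and 9). The 156-nt exon (chr14:23494539-23494694) averaged 0.912 ± 0.029 in induced and 0.888 ± 0.046 in control libraries (SD, n = 6 and 9). The 29-nt exon (chr14:23306725-23306753) averaged 0.060 ± 0.033 in induced and 0.104 ± 0.063 in control libraries in 1 of its events (SD, n = 6 and 9). The 174-nt exon (chr14:23425567-23425740), of the length of the stress-axis regulated exon STREX, was measured in 12 libraries. Its inclusion was 0.150 ± 0.098 in 4 induced and 0.222 ± 0.085 in 8 control libraries, and the interval of the difference was -0.121 to 0.078. Of the 9-nt exons of Kcnma1, the one at chr14:23402870-23402878 was included at 0.268 ± 0.061 in 4 induced and 0.30 ± 0.10 in 8 control libraries. The 3 mutually exclusive events of an 87-nt exon and of 9-nt exons agreed within 0.05 in every library. They are not independent, although the counts of events take each separately.

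The 43 distinct skipped exons had a median length of 92 nt, against 105 nt over the table. Of the 43, 27 (62.8%) were a whole number of codons long, against 47.7% of 10928 in the table. Lengths of 30 nt or less were found for 9 (20.9%), against 4.84% of the table. These shares describe the events' annotation and were not tested, and several of the short exons lie in Kcnma1 and Slc8a1.

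Taken by age, the question was whether the induced difference was present at 6, 12 and 20 weeks. No event of the set was called at any age, with 0.00320% of all events called in week 6, 0% in week 12 and 0.00320% in week 20. At an unadjusted p under 0.05 by limma there were 1 event in week 6 (0.926%, against 4.17% of all events), 14 in week 12 (13.0%, against 6.04%) and 14 in week 20 (13.0%, against 5.01%). The moderated F test of a difference between ages called no event of the set, against 0.00320% of all events, and 10 events (9.26%, against 4.14% of all events) had an unadjusted p under 0.05. Each age holds 2 induced libraries, and the counts moved with single libraries. The week 12 count lay between 10 and 14 with any single library left out. In week 6 the count was 10 without induced replicate 1 and 2 without the dox control, without no dox replicate 1 or without the muscle term. In week 20 it was 6 without induced replicate 1, 7 without no dox replicate 2, 9 without no dox replicate 1 and 8 with the dox control of week 6 left out. The count for the difference between ages was 4 without the week 6 dox control and also 4 without no dox replicate 2 of week 20. It was 5 without week 12 no dox replicate 2 and 6 without week 6 induced replicate 2.

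The Asph 75-nt exon had differences of -0.272 (SE 0.067) in week 6, -0.156 (SE 0.064) in week 12 and -0.025 (SE 0.063) in week 20. The muscles were uneven within ages: all 3 week 6 controls were gastrocnemius, while 1 of the 2 induced libraries of that age was quadriceps. Differences by age therefore lean on the muscle term and can depart from the differences between plain means. For the 75-nt exon the plain means of week 6 were 0.575 in induced and 0.867 in control libraries. The adjusted p by limma was 0.887, 0.802 and 1.0 in that order, and the difference between ages had no unadjusted p under 0.05. The week 6 value was -0.177 without induced replicate 2 and -0.420 without induced replicate 1. The uc008ryo.1 last exon event of Asph had fitted differences of 0.025, 0.253 and 0.118 over the same ages, with an adjusted p of 0.401 by limma in week 12. Its plain means in week 6 were 0.785 in induced and 0.690 in control libraries, farther apart than the fitted 0.025. That fitted value ran from -0.005 without no dox replicate 1 to 0.050 without no dox replicate 2 of week 6. Its week 20 value was 0.030 without induced replicate 1 and 0.221 without induced replicate 2. The fitted difference of the Atp2b3 154-nt exon was -0.012 in week 6, 0.172 in week 12 and 0.109 in week 20. The week 6 value had no settled sign: the plain means were 0.125 in induced and 0.097 in control libraries, and the fitted value was -0.037 without induced replicate 2 and 0.025 without induced replicate 1. Its test of a difference between ages had an unadjusted p of 0.0394 by limma and an adjusted p of 1.0.

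The Kcnma1 12-nt exon (chr14:23449200-23449211) and the 12-nt alternative 3' splice site of the exon that follows it (chr14:23442080-23442091) stood out at week 20. By their coordinates both events use the same junction from the same upstream exon. Their PSI ran close together in most libraries, so they are not independent. Inclusion of the exon was 0.35 and 0.22 in week 20 induced libraries, 0.05 in the dox control and 0.07 and 0.10 in no dox libraries of that age. In week 12 it was 0.06 and 0.04 in induced libraries, 0.09 in the dox control and 0.07 and 0.33 in no dox libraries. The week 20 difference was 0.223 (SE 0.064), with an adjusted p of 0.769 by limma. It was 0.107 without induced replicate 1 and 0.357 without induced replicate 2. The splice site had a week 20 difference of 0.164 (SE 0.062; adjusted p = 0.961 by limma), and 0.092 without induced replicate 1. A Kcnma1 first exon event (uc007smd.1) was 0.08 and 0.09 in week 20 induced libraries, 0.16 in the dox control and 0.14 and 0.19 in no dox libraries. Its week 20 difference of -0.079 had an adjusted p of 0.712 by limma.

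A first exon event of Trpm7 (uc008meh.1) was 0.05 and 0.06 in week 20 induced libraries, 0.36 in the dox control and 0.11 and 0.17 in no dox libraries. Its week 20 difference was -0.169 (SE 0.047; adjusted p = 0.759 by limma) and -0.086 without the dox control of that age. The Slc8a1 first exon event against uc008drs.1 was 0.26 and 0.50 in week 20 induced libraries, 0.56 in the dox control and 0.62 and 0.79 in no dox libraries. Its week 20 difference was -0.265 (SE 0.109; adjusted p = 0.99 by limma) and -0.165 without induced replicate 1. In week 12, Fkbp1a, Srl and Trpm7 splice site events and the Trdn exon were also among the 14 events, with adjusted p between 0.592 and 0.784 by limma.

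**Figure D4:**
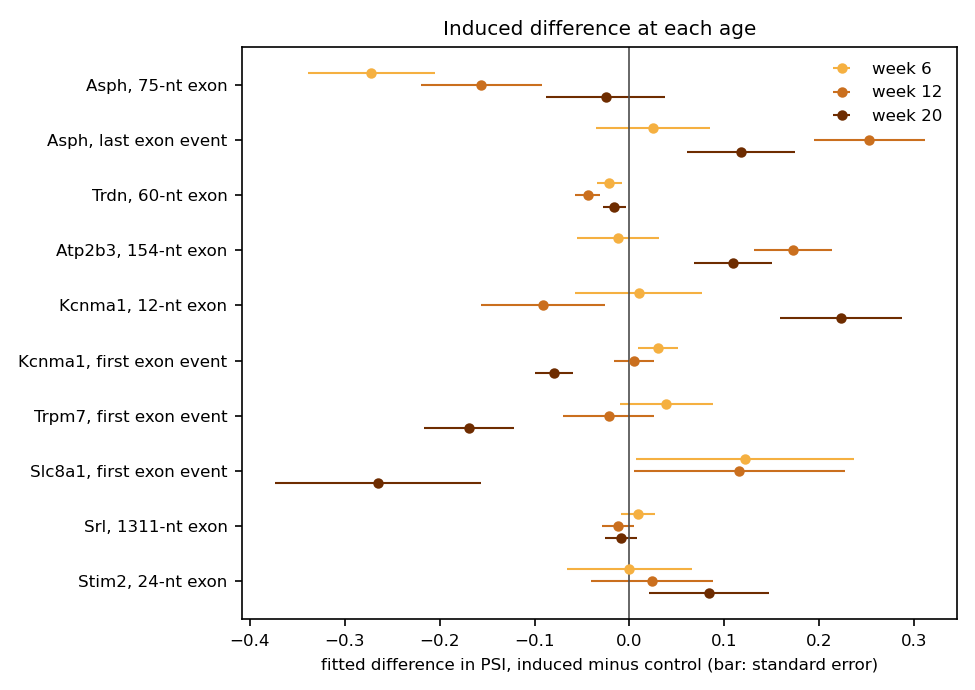
Fitted difference in PSI, induced minus control (horizontal axis), at 6, 12 and 20 weeks for 10 events (vertical axis), with bars of 1 standard error. The Asph 75-nt exon runs from -0.272 in week 6 to -0.025 in week 20, while the Kcnma1 12-nt exon has its largest value, 0.223, in week 20.

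The no dox libraries share the genotype of the induced ones, and the dox controls share the treatment. Against no dox, no event of the set was called (0% of all events), and 10 had an unadjusted p under 0.05 by limma (9.26%, against 6.02% of all events). Against dox controls, no event was called (0% of all events), and 3 had an unadjusted p under 0.05 by limma (2.78%, against 4.38%). With 3 dox controls this count was 0 without week 20 induced replicate 1 and 7 without week 20 or week 6 induced replicate 2. It was 5 without week 6 induced replicate 1 or the week 6 dox control, and 7 without the muscle term. The Asph 75-nt exon differed by -0.167 (SE 0.049) from no dox and by -0.120 (SE 0.062) from dox controls. The difference from no dox was -0.098 without week 6 induced replicate 2. The uc008ryo.1 event of Asph differed by 0.120 (SE 0.044) from no dox and 0.158 (SE 0.056) from dox controls. For the Atp2b3 exon the values were 0.083 (SE 0.034) and 0.102 (SE 0.043) in the same order, and the last was 0.067 without the week 12 dox control. The Kcnma1 3-nt splice site differed by -0.115 (SE 0.033) from no dox and by -0.054 (SE 0.042) from dox controls, or -0.023 without week 20 induced replicate 1. Both comparisons share the induced libraries, so their values are given side by side only.

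Dox controls against no dox libraries gave no called event (0% of all events) and 1 event with an unadjusted p under 0.05 by limma (0.926%, against 3.58%), a 92-nt skipped exon of Kcnma1. Without single libraries the count ran from 0, without the dox control or no dox replicate 2 of week 12, to 4, without the week 20 dox control. It was 3 without week 6 induced replicate 2 and 2 without week 12 induced replicate 2. It was also 2 without the dox control of week 6, or without no dox replicate 2 of week 6 or of week 20, and 2 without the muscle term. The Asph 75-nt exon averaged 0.877 ± 0.057 in dox controls and 0.878 ± 0.045 in no dox libraries (SD, n = 3 and 6). Its fitted difference was -0.046 (SE 0.065), and it ran from -0.089 without week 12 no dox replicate 1 to 0.006 without week 6 induced replicate 2. All 3 dox controls were gastrocnemius, and 3 of the 6 no dox libraries were quadriceps. Doxycycline and the MDAFrtTA transgene cannot be told apart in this comparison. The Asph 42-nt exon differed most, by 0.203 (SE 0.117; unadjusted p = 0.111 by limma), and by 0.10 without the week 6 dox control.

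Quadriceps against gastrocnemius gave no called event, against 0.00320% of all events, and 15 events of the set had an unadjusted p under 0.05 by limma (13.9%, against 7.54%). The 87-nt skipped exon of Kcnma1 (chr14:23390921-23391007) ranged from 0.41 to 0.80 in 5 quadriceps and from 0.71 to 0.88 in 10 gastrocnemius libraries. The muscles overlapped between 0.71 and 0.80, and the lowest value belonged to week 6 induced replicate 2. The difference was -0.185 (SE 0.057), with an adjusted p of 0.605 by limma. With either one of the week 6 induced libraries left out it was -0.126. The uc008ryo.1 event of Asph averaged 0.782 ± 0.047 in quadriceps and 0.695 ± 0.113 in gastrocnemius libraries (SD, n = 5 and 10), a fitted difference of 0.140 (SE 0.040; adjusted p = 0.576 by limma). The Atp2b3 154-nt exon differed by 0.081 (SE 0.029; adjusted p = 0.620 by limma). Quadriceps made up the same average share of both arms over the 3 ages, so the induced difference over all ages is the same with and without the muscle term.

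Week 20 against week 6 in controls gave no called event (0% of all events), and 7 events of the set had an unadjusted p under 0.05 by limma (6.48%, against 5.32%). Muscle was uneven here too, since 2 of the 3 week 20 controls were quadriceps and all 3 week 6 controls were gastrocnemius, so age and muscle are largely confounded. The Trpm7 first exon event had plain means of 0.213 in week 20 and 0.073 in week 6 controls. Its fitted difference was 0.183 (SE 0.047), and 0.070 without the week 20 dox control. An Asph last exon event of uc008ryo.1, against uc008ryk.1 and uc008ryl.1, had plain means of 0.430 in week 20 and 0.530 in week 6 controls, and a fitted difference of -0.180 (SE 0.055; adjusted p = 0.771 by limma). The last exon event of Itpr1 had plain means of 0.683 in week 20 and 0.583 in week 6 controls, and a fitted difference of 0.119 (SE 0.045; adjusted p = 0.879 by limma), or 0.077 without the week 20 dox control.

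Other genes of calcium handling and excitability, outside the set, were taken from a list of 67, of which 43 had 287 tested events. None was called in induced muscle against controls, against 0.00640% of all events. At an unadjusted p under 0.05 by limma there were 21 (7.32%, against 6.26% of all events), 9 with higher and 12 with lower PSI. The median size of the difference was 0.011, against 0.013 over all events. Arms that did not overlap were found in 2 of the 287 events, against 0.125% of all events. In 1 of these, against 0.0832% of all events, the means also lay 0.1 or more apart: the 42-nt exon of Atp2a1 (chr7:126446545-126446586), the pump that refills the store, whose skipping gives the neonatal isoform. It was included at 0.41 to 0.93 in induced libraries and at 1.00 in all 9 controls. The difference was -0.262 (SE 0.051), with an adjusted p of 0.259 by limma. Its exact permutation p was 0.0002, the smallest that the choices of 6 of 15 libraries can give. The event was named because its arms did not overlap, so that p restates the choice and adds no support.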

How the data were processed

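Poly-A selected RNA of 15 mouse muscle libraries was read from both ends, 100 bases at a time, according to the labels' protocols. Each deposited value is a fraction (PSI, 0 to 1, 2 decimals) for 1 event in 1 library, per the file headers, and the name of the deposited table calls the values MISO output. TopHat and mm10 are named in the submitters' processing notes. For versions, annotation and read minimum the entry is "not given in the sources used here". The reads behind a value are unknown, so well and poorly covered events weigh the same and no interval that needs depth is given. Coordinates were copied from event names (mm10, counted from 1).

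Columns were matched to libraries by the identifier in each title. Their names number the week 6 induced libraries the other way round, and titles were followed. There were 0 columns of other samples. The closest pair of libraries had equal PSI in 18.9% of events. By symbol or gene ID the rule found 150 events. A tandem UTR event under the symbol Stim1 lay outside that gene and was set aside, and 1 event was found by an older symbol. Gene IDs and positions were matched to a RefSeq table of GRCm38.p6.

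PSI was tested with limma 3.58.1 in R 4.3.3 (variance trend, robust moderation, two-sided, Benjamini-Hochberg adjustment over 31267 events). The fit held a mean per age and arm and a muscle term; induced differences are means over 3 ages. Comparisons of no dox and dox control libraries used condition, age and muscle. Events were called at a difference of 0.1 or more with an adjusted p under 0.05 (no minimum for the F test between ages). Exact permutation p-values of single events are two-sided, of the difference in means without week or muscle, and unadjusted. The fit was also run on simulated data with known differences. How often those were recovered is not given here, so a lack of calls does not show a lack of differences. No label says that libraries came from separate animals, so p-values reflect only how these libraries vary, which may be technical.

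Named events were, per gene, the event with the smallest p, events that differed by 0.05 or more at an unadjusted p under 0.05, events whose arms did not overlap, and, for each other comparison, up to 3 events in each direction that differed by 0.1 or more (for the F test, the 3 with the smallest p). Other events were named to describe a gene after their values were seen. The genes and lists were chosen with earlier results of these data known. Alternatives were a logit scale, no muscle term, mean PSI of 0.05 to 0.95, either muscle alone, events with missing values, the exact test, no trend or robust moderation, a replicate block and each library left out.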

Additional observations from a re-analysis of the deposited data

Results flagged for a closer look

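Among the named events, the 6 induced and the 9 control libraries were each examined for a library far from the others of its arm. This picked out 9 of 86 groups, where chance gives about 1 in 20. In induced libraries, week 12 replicate 1 stood at 0.76 in the Trpm7 50-nt 3' splice site (others 0.87 to 0.92). In dox controls, the week 20 library stood at 0.36 in the Trpm7 first exon event (other controls 0.06 to 0.17).

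In no dox libraries, week 12 replicate 2 stood at 0.33 in the Kcnma1 12-nt exon (other controls 0.05 to 0.16). Week 12 replicate 1 stood at 0.67 in the Kcnma1 last exon event of uc007smj.1 and uc007smk.1 against uc007smd.1 and uc007sme.1 (others 0.43 to 0.50). Week 6 replicate 2 stood at 0.62 in the Asph last exon event of uc008rym.1 and uc008ryn.1 against uc008ryj.1 (others 0.34 to 0.47).

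The remaining 4 were single steps of the second decimal. Week 12 induced replicate 2 had 0.01 in the Calm2 intron, with the other induced libraries at 0. Week 20 induced replicate 2 had 0.98 and week 6 no dox replicate 2 had 1.00 in the Fkbp1a 113-nt exon, where the other libraries had 0.99. Week 6 no dox replicate 1 had 0.99 in the Casq1 first exon event, where the other controls had 1.00.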

How the results depend on the processing

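No event of the set was called in any comparison under any alternative run. The exact test called no event of the whole table either, where its lowest adjusted p was 0.240. In induced muscle against controls, the count at an unadjusted p under 0.05 was 10. It was 5 among events with a mean PSI of 0.05 to 0.95 and 5 in quadriceps alone, by construction over fewer events and over 5 libraries without an age term. It ran from 9 to 13 with single libraries left out, and from 9 to 12 under the other alternatives. For 43 named events, 982 values were recomputed under 23 alternatives, and 47 values of 14 events changed sign. In each of these 14 events the difference was smaller than its standard error. Same-numbered induced and no dox libraries did not deviate together (r of 0.01, -0.012 and 0.015 in weeks 6, 12 and 20). This gave no sign of pairing but could not exclude it. At each age the replicates of either the induced or the no dox group came from different muscles, while those of the other group shared a muscle. With a replicate block, 0 events were called and 7 had an unadjusted p under 0.05, against 10 without it. Read depth per event is unknown, and 2 induced libraries per age limit the comparisons by age.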
